A study of Brassica oleracea with 15 samples.

Results

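The genes described here gave lower signals in both flanks that elongate during a tropic bend of Brassica oleracea hypocotyls, the shaded flank after blue light and the bottom flank after a gravity stimulus. They are 157 probe sets, chosen from 22810 on the array, of which 22746 were not AFFX controls and 11368 had a mean log2 signal over the 15 arrays of at least 8.28. A probe set entered when its group mean log2 signal was at least 0.5 lower in the shaded than in the lit flank, and at least 0.5 lower in the bottom than in the top flank, with a signal of zero set to 0.4. The measured flank differences therefore chose the members, and these differences are given below as a description with no test. In all, 163 probe sets met the limits, and 6 of them (PRXR1, AT4G27450, AT4G38810, AT1G20070, XTH32 and EXPB3) were left out by the rule. AFR, also named for leaving out, did not meet the limit in the gravity comparison.

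The study compared opposite hypocotyl flanks of wild-type seedlings, 3 days old and dark-grown, after 2 h of phototropic or gravitropic stimulation. Of the 5 groups of 3 arrays, 2 came from seedlings lit from one side with blue light (shaded flank and lit flank), 2 from gravity-stimulated seedlings (bottom flank and top flank), and the control flanks came from mock-stimulated seedlings. Each sample was a pool of about 100 seedlings, from which the outer part of the hypocotyl was cut along each side and the central vasculature was set apart. RNA of Brassica was hybridised to the Arabidopsis ATH1 array, so every gene name here is that of the Arabidopsis gene a probe set was made for, and Brassica copies that bind the same probes are read as one signal. Groups follow the sample titles, and the extraction text of some samples names another flank: for the lit samples it says that shaded flanks were collected, for the shaded samples that lit and shaded flanks were, and for the first and second bottom samples it names top and shaded flanks. A gene's lower signal in a flank can come from fewer cells of a type that expresses it or from less RNA per cell, and these arrays cannot tell the 2 apart.

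In a tropic response the organ bends because one side elongates faster than the other. In the classical account auxin is moved sideways by PIN-type carriers toward the shaded or lower side of the shoot, where it is perceived by TIR1/AFB receptors that release ARF transcription factors from Aux/IAA repressors. Transcripts that are higher on the elongating side, such as SAUR, Aux/IAA and GH3 genes, expansins and XTH enzymes that loosen the wall, are the usual markers of that side. The genes below run the other way: their signal was higher on the lit side and on the top side, which are the sides that elongate less.

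Every array was scaled by the submitters to the same trimmed mean of about 500, and the median signal per array lay between 332.2 and 358.3. The median correlation of log2 signals was 0.84 within groups and 0.83 between groups. The log2 ratio of 3′ to 5′ control probes, a sign of RNA length, was -0.29 ± 0.18 in shaded, -0.34 ± 0.14 in lit, -0.14 ± 0.11 in bottom, -0.21 ± 0.12 in top and 0.058 ± 0.30 in control arrays (SD, n = 3 each). It was highest in the first control array, at 0.40.

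Among the 11368 bright probe sets, the 163 that met both limits made up 1.43%. A further 164 were at least 0.5 higher in both the shaded and the bottom flank, 65 were lower in shaded and higher in bottom, and 79 were higher in shaded and lower in bottom. Members' median difference was -0.69 for shaded minus lit and -0.74 for bottom minus top on the log2 scale, beside 9.0e-06 and -0.0090 over all 11368. The members reached -2.10 after blue light and -3.48 after gravity. Of the 157, 19 were at least 1 log2 unit lower in both elongating flanks, 38 were so in the shaded flank and 40 in the bottom flank. The bottom flank had the larger deficit for 92 members and the shaded flank for 65. Shaded minus lit thus lay above bottom minus top for 58.6% of the members, beside 51.1% of all 11368. Over all bright probe sets, 1027 were at least 0.5 lower in the bottom flank and 755 in the shaded flank. Just inside the limits were probe set 253041_at at -0.53 and -0.50, AT2G25270 at -0.50 and -0.62, and 247371_at at -0.51 and -0.72. Just outside were AT3G42070 (-0.77 and -0.499), 254230_at (-0.497 and -0.503) and 251775_s_at (-0.495 and -0.63).

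**Figure D1:**
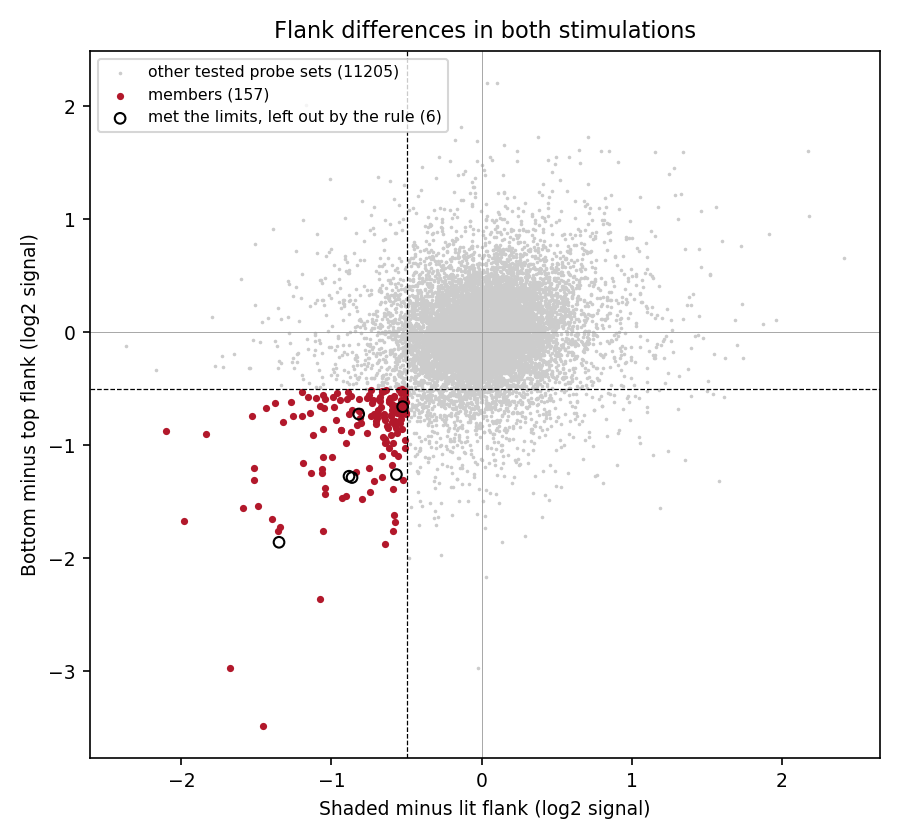
Each point is 1 of 11368 bright probe sets, placed by its log2 difference between shaded and lit flank (x axis) and between bottom and top flank (y axis), each a difference of means of 3 arrays; dashed lines mark the limit of -0.5. The 157 members (red) fill the lower left corner by construction, and the 6 open circles met the limits but were left out by the rule.

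Every shaded array lay below every lit array for 53 members, and 4.95% of all probe sets did so. For bottom below top the member count was 67 and the share over all probe sets was 6.3%. Both held for 29 members, against 0.669% of all. These counts use the contrasts that chose the members and carry no weight as evidence. The members' spread was wide: the SD of log2 signal within groups had a median of 0.62 over members and 0.35 over all 11368 probe sets. Their mean log2 signal had a median of 8.87, beside 9.32 over all, with 91 members under 9 and 27 above 10. When each array in turn was left out and the same limits were applied, 16 members met them every time and 114 met them in at least 12 of the 15 repeats. Of those 16, the 7 with 1 gene symbol were AT5G65660, AT5G62720, AT5G55180, AT5G51340, AILP1, AT5G17700 and AT3G21670.

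The members gave a lower median signal on all 6 arrays of the elongating flanks. The rule chose the members on the means of these arrays, so this largely follows from it and carries no weight as evidence. Relative to each gene's mean over all arrays, the median of the 157 members was -0.43, -0.24 and -0.14 on the shaded arrays and 0.35, 0.58 and 0.38 on the lit arrays (log2; values are listed in the order of replicates 1, 2 and 3, here and below). It was -0.18, -0.51 and -0.34 on the bottom arrays, 0.40, 0.45 and 0.42 on the top arrays, and -0.020, 0.14 and 0.059 on the control arrays. Control arrays thus lay between the flanks at the level of the median. The same median over all tested probe sets stayed between 0.018 and 0.056 on every array. The ratio of 3′ to 5′ control probes overlapped between opposite flanks in both stimulations, and its part in the flank differences was not tested.

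**Figure D2:**
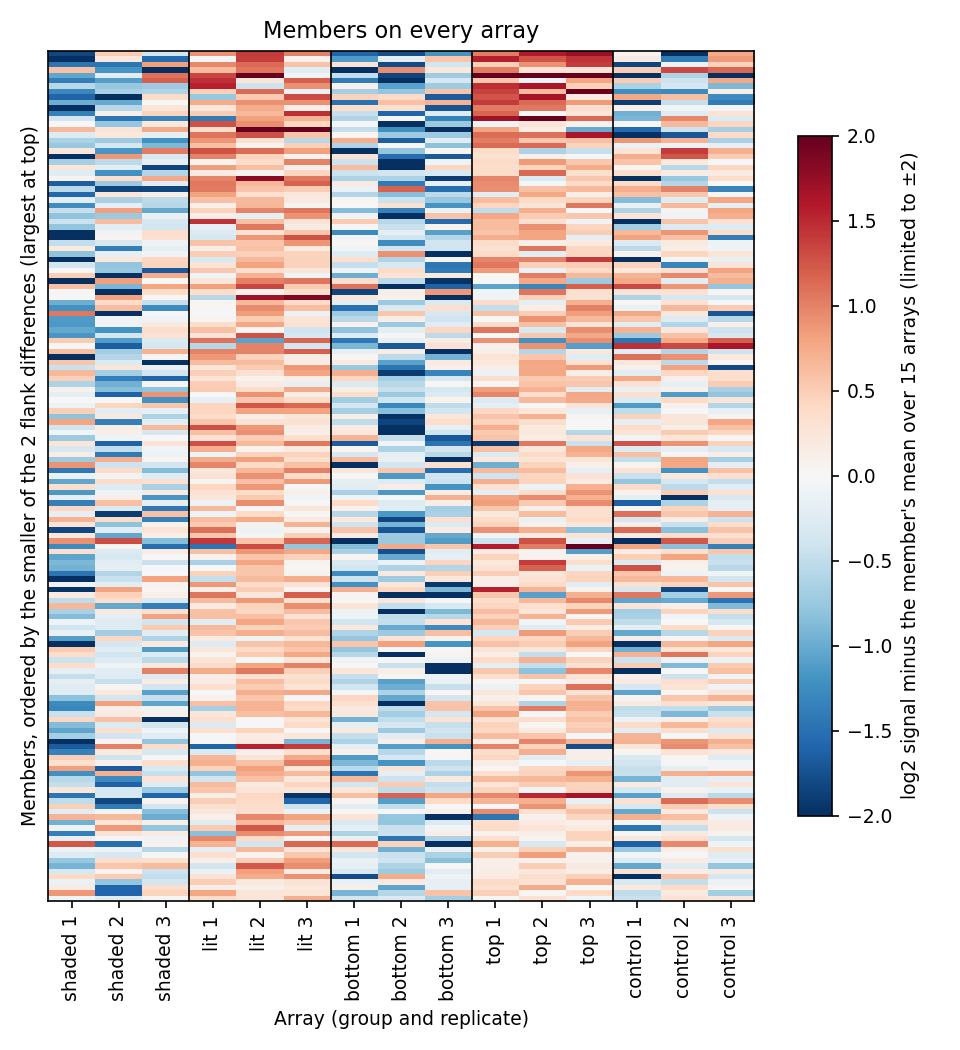
Rows are the 157 members ordered by the smaller of their flank differences, columns the 15 arrays, and colour the log2 signal minus the member's mean over the 15 arrays (limited to ±2). By construction, blue, for low signal, gathers in the shaded and bottom columns and red in the lit and top columns. Single arrays go the other way in many rows.

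By the annotation supplied with the array, 85 members carried 1 gene symbol, 3 carried several and 69 had none listed. To describe them, 34 of the 85 were placed in 7 groups by the product they encode, a grouping made with the values known. The other 51 encode proteins that were not grouped, many of them uncharacterised.

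The largest group encodes proteins of the cell wall, the cell surface and the secretory path. Its 11 members had median differences of -0.93 (shaded minus lit) and -0.89 (bottom minus top). In 4 of the 11 the shaded arrays lay wholly below the lit arrays, and in 6 the bottom arrays lay wholly below the top arrays, beside 4.95% and 6.3% of all probe sets and 33.8% and 42.7% of the members. Such counts by product use the contrasts that chose the members, and nothing is read from them here or below. AT5G55180 encodes a glycosyl hydrolase of the plant β-glucanase family, which cleaves callose-type wall glucans. Its signals were 998, 1394 and 1067 in the shaded flank and 2526, 2955 and 1793 in the lit flank, 1248, 729 and 729 in the bottom flank and 2625, 2583 and 3766 in the top flank. All shaded arrays were below all lit arrays and all bottom arrays below all top arrays. The differences were -1.06 ± 0.65 and -1.76 ± 0.65 (log2, ± standard error of the fit, n = 3 against 3), or 2.08-fold and 3.38-fold lower means. Control signals of 86, 371 and 1595 spread more widely than in any flank, from far below all flanks to between the elongating and the opposite ones.

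AT5G65660 encodes a hydroxyproline-rich glycoprotein, a class of structural wall protein. It read 426, 470.5 and 594 in shaded against 710.1, 872 and 1339 in lit arrays, and 500.2, 158 and 633 in bottom against 877, 1217 and 977 in top arrays. Neither pair of flanks overlapped. The differences were -0.93 ± 0.39 and -1.46 ± 0.39, the latter -0.85 without the second bottom array, which had the lowest signal. Control arrays, at 1003, 779.6 and 658, were above all shaded and bottom arrays.

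AT2G04570, a GDSL-motif lipase or esterase, had a wider gap between flanks after gravity than after blue light. Bottom arrays read 229, 356 and 136 and top arrays 1115, 1752 and 760.1, a difference of -2.36 ± 0.61 or 5.12-fold. Shaded arrays read 269.5, 128 and 141 and lit arrays 132, 611 and 562, a difference of -1.08 ± 0.61. After gravity the flanks were apart, whereas the first lit array was as low as the shaded ones. Without that array the blue light difference was -1.79, and without the second lit array -0.69. The controls gave 184, 677 and 288.

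AT3G17230 and AT5G62350 belong to the family of small secreted inhibitors of invertases and pectin methylesterases. AT3G17230 read 524, 377 and 124 in shaded and 787, 669 and 481 in lit arrays, with 1 overlapping pair. In bottom arrays it read 679, 94 and 598 and in top arrays 563, 606 and 738, with control arrays at 460.5, 303 and 598. Its gravity difference of -0.91 ± 0.62 rested on the second bottom array: without it the difference was 0.014. The blue light difference of -1.12 ± 0.62 went to -0.51 without the third shaded array. AT5G62350 separated in blue light, with 1438, 974 and 1345 in shaded and 2338, 2600 and 2412 in lit arrays, and overlapped after gravity, where the differences without single arrays ran from -0.997 to -0.31.

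AT5G63180, a pectate lyase that cuts de-esterified pectin, was read at 10878, 13434 and 9876 in shaded and 16178, 18265 and 15629 in lit arrays. Its bottom arrays read 9780.3, 6546 and 9366 and its top arrays 11848, 17647 and 27759. Both pairs of flanks were apart, with differences of -0.56 ± 0.26 and -1.09 ± 0.26, while control arrays (10161, 15586 and 12286) overlapped the shaded and top flanks and lay between the other two. AT1G17860, a Kunitz-type protease inhibitor, had differences of -0.77 ± 0.38 and -0.89 ± 0.38, and its shaded and lit arrays overlapped. The first of these was -0.30 without the second shaded array. AT4G32920, a glycine-rich protein, had -1.32 ± 0.68 and -0.79 ± 0.68, the first of which was -0.42 without the first shaded array. The group also holds the glycine-rich protein AT1G04660, the subtilase SBT1.3, a secreted serine protease, and the GDSL lipase AT2G19050. AT1G04660 had -0.69 (from -1.01 to -0.20 without single arrays) and -0.72 (from -1.25 to -0.25). SBT1.3 had -0.54 (from -0.88 to -0.11 without single arrays) and -0.53 (from -0.67 to -0.33), and AT2G19050 had -0.53 (from -0.77 to -0.32 without single arrays) and -0.60 (from -0.83 to -0.28).

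The group of membrane transporters was given 3 members, with median differences of -0.90 and -1.24. It may not hold every transporter among the members, since only members with 1 gene symbol were grouped. Probe set 252589_s_at, which AT3G45660 and NAXT1 share, was not placed. Its blue light flanks overlapped and its gravity flanks did not. The flanks of the 3 grouped members did not overlap in either stimulation, as for 0.669% of all probe sets and 18.5% of the members. AT3G21670 is a member of the NRT1/PTR family of nitrate and peptide transporters. Its signals were 374, 1028 and 1307 in shaded and 1346, 1491 and 2670.5 in lit arrays, 697, 313 and 803 in bottom and 2135, 959 and 1132 in top arrays, and 489.9, 807 and 1169.9 in controls. The lowest lit array was just above the highest shaded one. The differences were -1.14 ± 0.47 and -1.24 ± 0.47. Without the first shaded array the blue light difference was -0.59, and without the second bottom array the gravity difference was -0.82.

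AT5G17700 encodes a MATE-type efflux carrier. It read 454, 543 and 739 and 861, 1529 and 906 in shaded and lit arrays, 285, 285 and 118 and 854, 359.9 and 632 in bottom and top arrays, and 67, 258 and 563 in controls. The differences were -0.90 ± 0.59 and -1.45 ± 0.59, and the control arrays ran from below every flank array to within the range of the shaded and top ones. AT5G62720, an integral membrane protein of the HPP family, read 414, 212 and 327 in shaded and 550.5, 519 and 661 in lit arrays. In the gravity flanks it read 366, 378 and 399 at the bottom and 636, 1089 and 611 at the top, with controls at 629, 543 and 549. Its bottom arrays lay close together and below every top and control array. The differences were -0.90 ± 0.29 and -0.98 ± 0.29.

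The group of products acting in the nucleus was given 8 members, with median differences of -0.84 and -0.74. In 3 of the 8 the blue light flanks did not overlap, and in 3 the gravity flanks did not, beside 4.95% and 6.3% of all probe sets and 33.8% and 42.7% of the members. bHLH115 is a transcription factor of iron homeostasis in Arabidopsis. It read 1108, 1222 and 1422 in shaded and 2272, 2249 and 2844 in lit arrays, and 1559.9, 642 and 1181 in bottom and 1987, 1684 and 1756 in top arrays. Both pairs were apart, with differences of -0.97 ± 0.25 and -0.77 ± 0.25, the second -0.41 without the second bottom array. Controls, at 1266, 1737 and 1435, were below all lit arrays and overlapped the other flanks.

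AT2G30620 encodes a linker histone, which binds between nucleosomes. It read 1064, 293 and 1070 in shaded and 2193, 1411 and 1874 in lit arrays, which were apart by -1.37 ± 0.62 (-0.75 without the second shaded array). In bottom arrays it read 284, 868 and 324 and in top arrays 239, 1872 and 660.4, where the difference rested on 1 high top array, at -0.63 ± 0.62. Without that array the bottom flank was higher, at 0.12. AT5G51340 is the Arabidopsis counterpart of the cohesin loader SCC4, with -1.06 ± 0.48 and -0.85 ± 0.48. Without the third shaded array the first was -0.66, and without the second top array the second was -0.53. CHR34, an SNF2-type chromatin remodeller, had -0.80 ± 0.50 and -1.47 ± 0.50, but its blue light difference was -0.054 without the first shaded array. The remaining nuclear products are the B3-domain protein AT5G58280 (-0.63 and -0.85), the GRAS protein AT2G37650 (-0.89 and -0.53), LSH9 of the family named for light-dependent short hypocotyls (-0.66 and -0.53), and FIO1, a methyltransferase of RNA (-0.51 and -0.71). Without single arrays, AT2G37650 went to -0.25 in blue light (shaded replicate 2), LSH9 to -0.28 in blue light (shaded replicate 2) and -0.25 after gravity (bottom replicate 2), and FIO1 to -0.19 (shaded replicate 3) and -0.014 (bottom replicate 1).

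Smaller groups had products of the plastid, sugar and energy metabolism, oxidation and signalling. CHLM, the methyltransferase that acts on magnesium protoporphyrin in chlorophyll synthesis, had differences of -0.51 ± 0.35 and -0.70 ± 0.35. RAP, a chloroplast protein needed for ribosomal RNA processing, had -0.57 ± 0.35 and -0.82 ± 0.35, and for both genes the flanks overlapped in each stimulation. Without single arrays CHLM went to -0.30 (lit replicate 2) and -0.36 (bottom replicate 2), and RAP to -0.39 (shaded replicate 1) and -0.52 (bottom replicate 3). AILP1, of the aluminium-induced protein family to which the left-out AT4G27450 also belongs, read 10416, 6365 and 6637 in shaded and 10024, 12998 and 12954 in lit arrays. Its bottom arrays read 4727, 4177 and 5741, its top arrays 9920.2, 8631 and 6619.9 and its controls 5236, 7360.2 and 6658. The bottom arrays were all below the top arrays, and the first shaded array was above the lowest lit array. The differences were -0.65 ± 0.21 and -0.77 ± 0.21. AT5G57655, a xylose isomerase, had -0.75 ± 0.60 and -1.20 ± 0.60; its blue light difference was 0.056 without the first shaded array, so it rested on that array.

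Among oxidases, the cytochromes CYP71B27 and CYP71B38 and the oxoglutarate-dependent oxygenases AT5G43450 and AT3G28480 had median differences of -0.56 and -0.71. The gravity flanks were apart in 3 of these 4 and the blue light flanks in 1, beside 6.3% and 4.95% of all probe sets. AT5G43450's blue light difference of -0.60 was 0.10 without the second shaded array. CYP71B38 went from -0.63 to -0.40 (without the first shaded array) and from -0.83 to -0.23 (bottom replicate 3), and AT3G28480 from -0.51 to -0.14 (shaded replicate 1) and from -0.54 to -0.35 (bottom replicate 3). CYP71B27's blue light difference of -0.51 was -0.28 without the third shaded array. Among kinases and receptors, the receptor-like kinases AT5G63410 (-0.74 and -0.51), AT4G01330 (-0.60 and -0.79) and APK1A (-0.96 and -0.54) and the NBS-LRR protein AT5G47260 (-0.59 and -1.61) were members. APK1A's blue light difference was -0.13 without the first shaded array and its gravity difference -0.20 without the first bottom array. AT4G01330's blue light difference was -0.27 without the second shaded array, and AT5G47260's gravity difference -1.04 without the third bottom array. AT5G47260 met all limits in 7 of the 15 repeats that left out an array.

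Several of the largest differences belonged to genes that were not placed in a product group. AT3G43630 read 114, 115 and 553 in shaded and 615, 688 and 468 in lit arrays, 379, 91 and 245 in bottom and 436, 590.5 and 827 in top arrays, and 88, 294 and 433 in controls. The third shaded array was level with the lit arrays, and the bottom arrays were all below the top arrays. Its differences of -1.59 ± 0.68 and -1.55 ± 0.68 were the largest pair among the named members by the smaller of the 2. Leaving out single arrays moved them from -2.35 to -1.21 and from -1.999 to -0.97.

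AT4G09830 read 125, 151 and 745 in shaded, 896, 386 and 740.5 in lit, 124, 82 and 258 in bottom, 469.9, 305 and 562 in top and 462, 245 and 556 in control arrays. Here too the third shaded array was as high as the lit arrays, while the bottom flank was apart from the top. The differences were -1.40 ± 0.63 and -1.65 ± 0.63, and without single arrays they ran from -2.21 to -0.92 and from -2.10 to -1.27. AT2G34585 read 369, 141 and 638 in shaded, 762, 685 and 555 in lit, 16, 183 and 324 in bottom, 405, 204 and 229 in top and 379.7, 832 and 518 in control arrays. Its first bottom signal was far below every other array, and without it the gravity difference of -1.43 ± 0.82 was -0.13. Its blue light difference of -1.04 ± 0.82 was -0.45 without the second shaded array. With a mean log2 signal of 8.30, AT2G34585 met all limits in 4 of the 15 repeats.

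**Figure D3:**
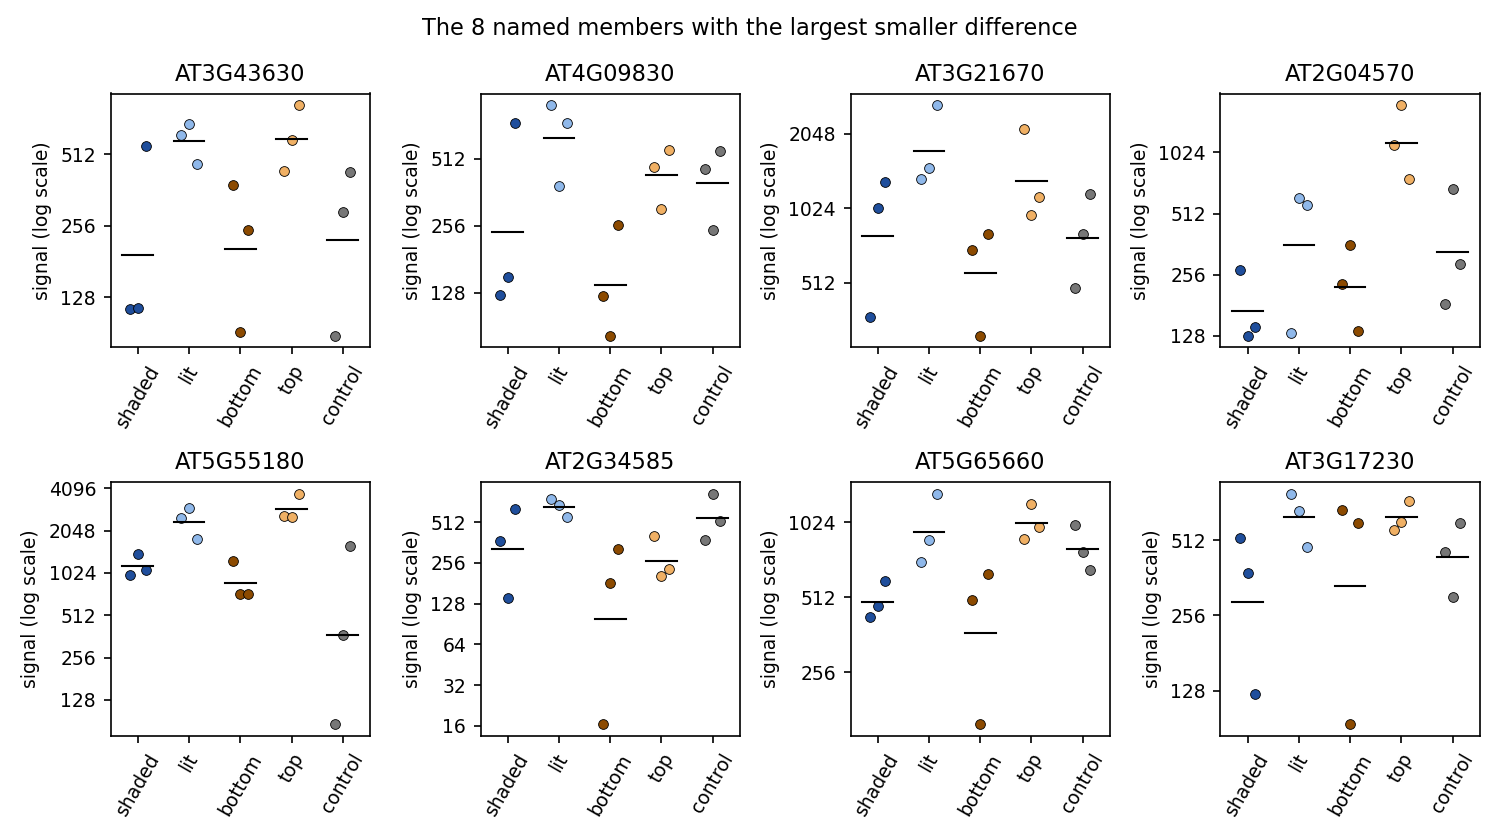
Signal on each array (log axis, arbitrary units) for the 8 named members with the largest smaller difference; points are arrays, 3 per group, and bars are means of the log2 signals. AT5G55180 and AT5G65660 have no overlap between opposite flanks, whereas single arrays set the group means of AT2G34585 (bottom) and AT3G17230 (bottom).

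Of the other named members with large differences, AT5G44720, of the molybdenum cofactor sulfurase family, read 107, 203 and 290.5 in shaded and 706, 534 and 767 in lit arrays. Those flanks were well apart, by -1.84 ± 0.48, and the gravity flanks overlapped, with -0.90 ± 0.48 (-0.42 without the second bottom array). AT4G14380 had -0.94 ± 0.37 and -0.86 ± 0.37, AT5G08360 had -0.74 ± 0.49 and -1.41 ± 0.49, and AT5G03460 had -1.20 ± 0.47 and -0.74 ± 0.47. Without the third bottom array the gravity difference was -0.42 for AT4G14380 and -0.23 for AT5G03460. The blue light difference was -0.47 for AT5G08360 without the second shaded array and -0.76 for AT5G03460 without the third. By the smaller of its differences, the first of all 157 members was probe set 267008_at, with no gene listed. It read 89.8, 452 and 243 in shaded and 599.9, 834 and 640.1 in lit arrays. The gravity flanks gave 104, 93 and 138 in bottom and 642, 955 and 1046 in top arrays. Both pairs of flanks were thus apart, by -1.67 and -2.97. With a mean log2 signal of 8.31, the probe set met all limits in 7 of the 15 repeats that left out an array.

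**Figure D4:**
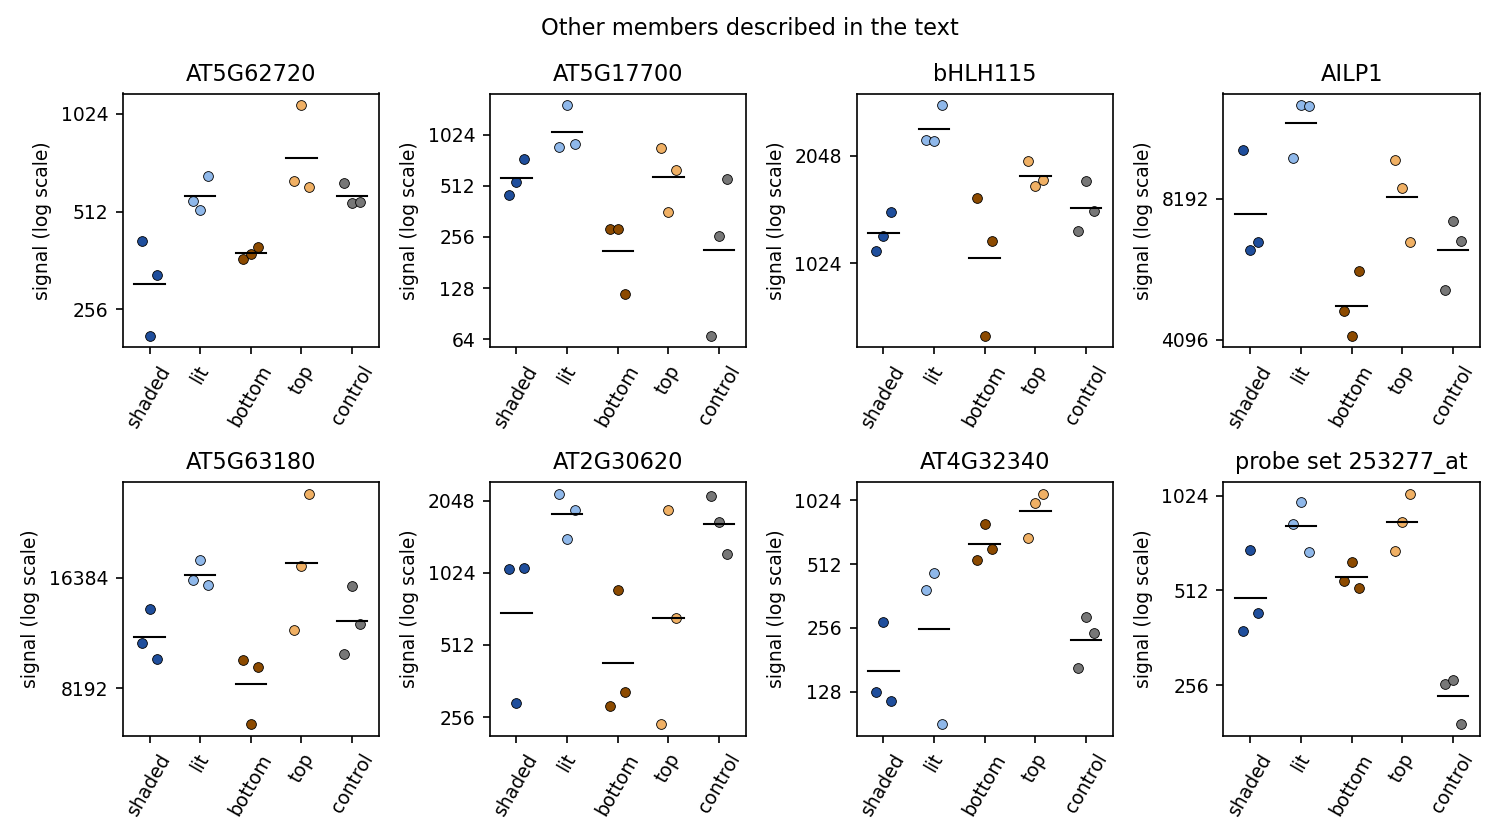
Signal on each array (log axis, arbitrary units) for 8 further members; points are arrays, 3 per group, and bars are means of the log2 signals. Control arrays of probe set 253277_at lie below all flank arrays, and for AT4G32340 the gravity flanks lie above the blue light and control arrays.

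The mock-stimulated control gave each member a level that the flank limits did not use. Its mean lay between the shaded and lit means for 91 members, below shaded for 38 and above lit for 28. It lay between bottom and top for 85, below bottom for 33 and above top for 39. For 55 members the control was between the flanks in both stimulations, for 20 it was below both elongating flanks and for 15 above both opposite flanks. Set against control, the median member was at -0.32 in shaded, 0.42 in lit, -0.40 in bottom and 0.40 in top flanks. Since the limits force the flanks apart, these medians describe where the control fell and test nothing. Both stimulations are set against the same control arrays.

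With equal spread in both flanks of a stimulation, their mean is uncorrelated with the difference between them. That mean was therefore tested against the control with limma (version 3.58.1) over all 11368 probe sets. A single low array in an elongating flank lowers both the mean and the difference. For members that rest on such an array, the test is not free of the choice. After blue light the members' median difference of flank mean minus control was 0.052, beside -0.0042 over all 11368. Probe set 253277_at, with no gene listed, was the 1 member that passed, and it rose. Its controls read 257, 266 and 192, below all 6 blue light arrays, which read 379, 686 and 434 in the shaded and 833, 979.6 and 679 in the lit flank. The rise was 1.42 ± 0.23 on the log2 scale, or 2.67-fold (limma, Benjamini-Hochberg adjusted p = 0.024). It did not pass without the first or the second control array (limma, adjusted p up to 0.085). Over all genes, 25 probe sets passed, or 0.22%, and those that were higher made up 0.088%. At an unadjusted p below 0.05 the members numbered 23 (14.6%) and all probe sets 1171 (10.3%).

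The named members with the smallest p did not pass. AT5G55180 was 2.15 ± 0.56 above control (limma, adjusted p = 0.12), AT5G17700 1.86 ± 0.51 and AT1G32160 0.81 ± 0.22. Below control were AT1G04660 at -1.80 ± 0.50 (limma, adjusted p = 0.15), APK1A at -1.48 ± 0.46 and AT3G52920 at -0.72 ± 0.23. AT1G04660's control arrays read 1189, 1077 and 1331 and its 12 flank arrays at most 854. AT5G55180's value depended on the controls: it was 3.21 without the third control array, where it passed (limma, adjusted p = 0.0029), and 1.098 without the first, where it did not. AT5G17700 was 2.56 without the third control array, where it passed as well (limma, adjusted p = 0.030), and 1.02 without the first, where it did not.

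After the gravity stimulus, the same probe set was the member that passed. 253277_at read 547, 629 and 521 in bottom and 683, 846 and 1040.3 in top arrays, all above its controls, a rise of 1.55 ± 0.23 or 2.93-fold (limma, adjusted p = 0.0035). It passed without any 1 of the 15 arrays. Over all genes, 83 probe sets passed, or 0.73%, the higher ones making up 0.369%, and the members' median was -0.025 beside -0.0088 over all. At an unadjusted p below 0.05 there were 31 members (19.7%) and 1428 probe sets in all (12.6%). The named members nearest the threshold were AT4G32340, a tetratricopeptide-repeat protein, at 1.75 ± 0.46 (limma, adjusted p = 0.089), AT5G55180 at 2.11 ± 0.56 and the leucine-rich-repeat protein AT3G19320 at 1.35 ± 0.41. On the lower side were AT1G04660 at -1.87 ± 0.50 (limma, adjusted p = 0.093), AT2G30620 at -1.62 ± 0.53 and AT2G34585 at -1.75 ± 0.71. The value of AT2G34585 was -1.10 without the first bottom array, on which its gravity flank difference also rested. AT5G55180 passed without the third control array (3.17, limma, adjusted p = 0.00092) and was 1.06 without the first, where it did not pass. AT4G32340 passed without the third lit array (limma, adjusted p = 0.020). The 3′ to 5′ log2 ratio was 0.058 ± 0.30 in the 3 control arrays, -0.31 ± 0.15 in the 6 blue light arrays and -0.17 ± 0.11 in the 6 gravity arrays (SD), and its part in these differences was not tested.

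The blue light and gravity flanks were compared with each other without the control. Of the members, 5 passed the test (3.18%), beside 253 of all probe sets (2.23%): 4 were higher after blue light, as were 1% of all, and 1 was lower, as were 1.22%. AT4G32340 was lower after blue light, with 128, 274 and 116 in shaded and 385, 464 and 89.9 in lit arrays. After gravity it read 533, 789 and 606 in bottom and 682, 994 and 1102 in top arrays, and 166, 287 and 241 in controls. Every gravity array was above every blue light and control array. The difference was -1.92 ± 0.38, or 3.78-fold (limma, adjusted p = 0.014), and it passed without any 1 array. AT4G32340 met the limits for membership in 7 of the 15 repeats that left out an array.

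None of the 4 that were higher after blue light has a single gene listed. Probe set 253276_at read 9704, 8317 and 9884 in shaded and 12779.8, 11719.9 and 16066 in lit arrays, against 4187, 3412 and 5416 in bottom and 8643, 7584 and 6957 in top arrays. Its difference was 0.96 ± 0.13 (limma, adjusted p = 0.00086), and it passed without any 1 array; controls, at 5999.7, 7600.2 and 7531, were inside the top range or below it. Probe set 251962_at read 12225, 17654 and 19337 in shaded and 17756, 31062 and 29079.7 in lit arrays, and 10121, 5407 and 9214 in bottom and 11565, 13222 and 15760.2 in top arrays. Its lit arrays were above all gravity arrays and its shaded arrays overlapped the top ones. The difference was 0.96 ± 0.22 (limma, adjusted p = 0.028). Probe set 254163_s_at, which 2 genes share, read 5084, 3926 and 5464 in shaded, 4193, 14322 and 16556 in lit, 2318, 1380.3 and 749 in bottom and 5631, 3550.1 and 1604 in top arrays. All its blue light arrays were above all bottom arrays, and the first top array was above the shaded ones. The difference was 1.74 ± 0.36 (limma, adjusted p = 0.02). Probe set 256305_at read 1345, 884 and 1183 in shaded, 1629, 1970.3 and 1822 in lit, 680.3, 317 and 912 in bottom and 1208, 1128 and 495 in top arrays. Here the shaded arrays overlapped both gravity flanks and the lit arrays were above them. Its difference was 0.99 ± 0.25 (limma, adjusted p = 0.048). Probe set 256305_at passed in 3 of the 15 fits that left out an array, 251962_at in 8 and 254163_s_at in 13. For 256305_at the call was also lost with a random or fixed replicate block (limma, adjusted p = 0.069 and 0.064), with median-centred arrays, without the filter on dim probe sets and without the intensity trend (limma, adjusted p up to 0.10). Without the trend 251962_at and 254163_s_at did not pass either, nor did 251962_at without the filter. AILP1 missed narrowly, at 0.59 ± 0.15 (limma, adjusted p = 0.051). Also short of the threshold were AT5G17700 (1.14 ± 0.42), AT5G47260 (1.28 ± 0.47), APK1A (-1.05 ± 0.38) and AT2G04570 (-1.04 ± 0.43). The members' median was 0.011, beside 0.0092 over all. No dates of extraction or hybridisation were used, so a batch that follows the stimulation cannot be told apart from it.

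**Figure D5:**
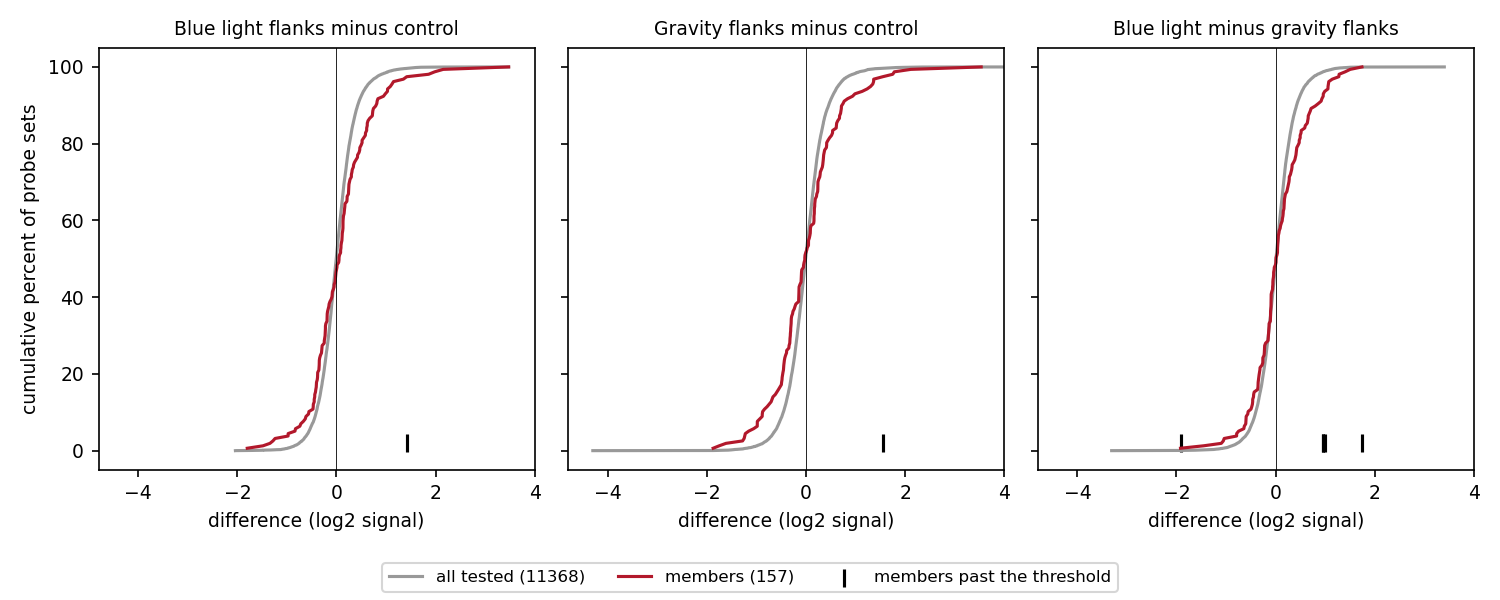
Cumulative percent of probe sets (y axis) against the log2 difference (x axis) for blue light flanks minus control, gravity flanks minus control and blue light minus gravity flanks; grey is all 11368 tested, red the 157 members, and ticks mark members past the threshold. The red curves are wider than the grey ones on both sides and share their centre; a few grey probe sets lie beyond the right edge of the gravity panel.

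Lists of hormone, light, wall, stress and tissue marker genes held none of the 85 members with 1 gene symbol. The 69 members with no gene listed and the 3 with several could not be matched to a list. That no member was found is therefore not a trait of the 157. It also follows in part from the rule: PRXR1, on the list of class III peroxidases, met both limits (-0.88 and -1.27) and was left out. The 15 lists named 278 genes, of which 41 had a probe set carrying that symbol alone and 26 of these were bright enough to test. Of the 26, 13 had both flank differences below 0, beside 28.6% of all tested probe sets. They included 5 of 9 nuclear photosynthesis genes, both dark- and starvation-induced genes, both glucosinolate genes, both genes of light signalling and the clock, 1 of 4 class III peroxidases and 1 of 2 ethylene genes. The peroxidase is PRXR1 and 1 of the light signalling genes is AFR, both of which the rule names for leaving out. The share of the 26 below 0 in both uses the contrasts that chose the members. The lists were chosen with earlier results of these data known, so that share carries no weight as evidence. The 3 phenylpropanoid genes, the 1 auxin transport gene and the 1 GH3 gene were not below 0 in both, and the GH3 gene was higher in shaded by 0.78 and in bottom by 1.104. None of the Aux/IAA, SAUR, jasmonate, heat shock, vascular or epidermal lists had a named probe set bright enough to test. The hypocotyl tissue of the labels could therefore not be checked with the vascular and epidermal markers.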

How the data were processed

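Each of the 15 samples was labelled cRNA on 1 array, 3 arrays per group. The authors deposited 1 intensity per probe set and array, computed in GCOS 3.0 (submitters' processing notes); the values are linear, and the trimmed mean of 500.0 on every array was checked on the files. Probe-level data were not used here, so detection above background could not be applied and a minimum mean log2 signal of 8.28 stood in for it.

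Values were taken as deposited, with 1 value at or below 0 set to 0.4, and log2-transformed. Group means gave the flank differences. The 3 comparisons of stimulations were fitted with limma 3.58.1 in R 4.3.3 (lmFit on 5 group means, 10 residual degrees of freedom, eBayes with an intensity trend), with Benjamini-Hochberg adjustment over 11368 probe sets and a threshold of 0.05. All p-values rest on that spread. The number of arrays limits the precision.

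Gene names come from the platform annotation: among non-AFFX probe sets, 13513 had 1 symbol, 503 several and 8730 none listed. Named genes are the 20 single-symbol members ranked by the smaller flank difference, those past the threshold or with the 3 smallest p each way, those at the limits, and others by product. The members, lists and groups were chosen with earlier results of these data known, so nothing about them is independent evidence. Samples were grouped by title, and the sets of 3 were described by the submitters as biological triplicates. Alternatives tried were quantile normalization, median centring, log2(signal + 16), other filters and limits, no trend, a replicate block and leaving out each array.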

Additional observations from a re-analysis of the deposited data

Results flagged for a closer look

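For 5 members the mean of both flanks differed between the blue light and the gravity stimulation, which is what marked them for a closer look (limma, adjusted p below 0.05). AT4G32340 differed by -1.92 (log2, blue light minus gravity). Probe set 254163_s_at differed by 1.74, 256305_at by 0.99, 251962_at by 0.96 and 253276_at by 0.96. AT4G32340 and 253276_at passed in every fit that left out 1 array, and the other 3 did not; 256305_at also lost its call under either replicate block.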

How the results depend on the processing

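The number of members was 929 with no brightness minimum, 56 among the brightest 30% of probe sets, 294 at a limit of -0.4 and 83 at -0.6; without single arrays it ran from 148 (lit 2) to 203 (lit 1), of which 107 to 155 were shared with the 157. Flank differences without single arrays were computed for the highest-ranked named members and those in product groups, not for all 157. Among the members so checked, single arrays reversed 4 flank differences. For bottom minus top, AT3G17230 ran from -1.41 to 0.014 (without bottom 2) and AT2G30620 from -1.37 to 0.12 (top 2). For shaded minus lit, AT5G57655 ran from -1.20 to 0.056 (shaded 1) and AT5G43450 from -1.13 to 0.10 (shaded 2). Members that were not checked can reverse as well. AT2G23090 read 483.8, 9 and 577.6 in shaded and 325.2, 561.7 and 329.4 in lit arrays, so its blue light difference rested on shaded 2. In the tested comparisons what passed changed with the filter, the trend and the arrays used, and the cause of these shifts was not tested. For blue light against control, 11 probe sets passed without the filter, 57 among the brightest 30%, 9 without the intensity trend, and 1 (without control 1) to 62 (control 3) without single arrays, with 15 without shaded 1, 9 without shaded 2 and 3 without control 2; 3 members passed after quantile normalization and among the brightest 30%, and 0 (control 1, control 2) to 3 (control 3) without single arrays, with 2 without lit 1. For gravity against control, 142 passed among the brightest 30%, 37 without the trend, and 32 (control 2) to 99 (bottom 1) without single arrays, with 55 without top 1 and 51 without control 1 or control 3; members numbered 2 with log2(signal + 16) and 1 to 3 (lit 3) without single arrays, with 2 without lit 2, bottom 1, control 2 or control 3. For blue light against gravity, 145 passed without the filter, 106 without the trend, and 132 (bottom 3) to 252 (bottom 1) without single arrays, with 146 without shaded 1, 139 without lit 3, 161 without bottom 2, 151 without top 2 and 154 without top 3; members numbered 3 without the filter, 2 without the trend and 2 (lit 3) to 6 (shaded 2) without single arrays, with 3 without shaded 3, lit 2 or top 2. The labels do not say what the sample numbers mark, and the main fit did not use them. Deviations of same-numbered opposite flanks correlated at 0.13, 0.15 and 0.038 in blue light and from -0.018 to 0.060 after gravity. Of 12 flank samples, 8 correlated best with their own number, a hint from the data, not the design. With the number as a fixed replicate block, 11 probe sets passed for blue light against control and 88 for gravity against control. For blue light against gravity 242 passed, and members numbered 1, 1 and 4 in the 3 comparisons. With a random replicate block the counts were 22, 80 and 204, with 1, 1 and 4 members. The member lost under either block was 256305_at.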
